A study of Homo sapiens with 10 samples.

Results

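The G2 and mitosis genes described here are 50 genes that act between the end of DNA replication and the separation of daughter cells. They were taken from a fixed list of symbols, chosen with earlier results of these data known. Of the 50, 37 had a row in the deposited values, out of 12083 genes with a probe set of a single gene symbol. Of these 37, 35 could be tested, and each of the 35 was at or above the array median on all 10 arrays. The rows of KIF20B and CKAP2 were below the array median on all arrays and were not tested. The 13 genes not analysed here are CDC25B, FOXM1, PLK1, TPX2, BUB1B, CDC20, PTTG1, NDC80, NUF2, KIF11, KIF20A, PRC1 and DLGAP5.

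The RNA came from breast cancer cells (BCCs) of the line MDA-MB-231, which is basal-like and of metastatic origin. All the cells had been stably transfected with pEGFP1-Oct3/4, which drives GFP from the Oct4A promoter, and selected with neomycin. Oct4A is a transcription factor of stem cells. The transfectants were sorted by GFP intensity into the brightest (Oct4hi, 4 arrays), the middle (Oct4med, 2 arrays) and the dimmest BCCs (Oct4low, 4 arrays). Sorting was on the reporter, so the subsets are fractions of the transfected line and not separate lines, and the Oct4 transcript itself is not analysed here. Per the methods the RNA came from 4 experiments, and the sources used here do not say which arrays belong to which.

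Entry into mitosis is driven by cyclin-dependent kinase 1 (CDK1) bound to A and B cyclins. Mitotic kinases then build the spindle, and the kinetochores that form on centromeres attach chromosomes to it. The spindle checkpoint holds back the anaphase-promoting complex (APC/C) until all chromosomes are attached. Transcripts of these genes accumulate in S and G2 and are low in resting cells, which makes MKI67 and TOP2A common markers of dividing tumor cells. Many of these genes are held silent in G1 by the DREAM complex. It binds through its MuvB core to a promoter element called the cell cycle homology region (CHR), often next to CCAAT boxes bound by NF-Y.

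Promoter windows from RefSeq (GRCh38.p14, 250 bases before to 50 bases after the start) were searched for the CHR sequences TTTGAA and TTCGAA and for CCAAT, each on both strands. The table held 43 of the 50 genes, with 55 windows. FOXM1, TPX2, BIRC5, UBE2C, BUB3, TTK and AURKA were not matched. A CHR sequence was in 35 of the 55 windows (63.6%), against 16.4% of the 35116 windows of all genes. CCAAT was in 39 of the 55 (70.9%), against 34.6% of all windows, and both were in 27 (49.1%), against 6.38% of all windows. Within the last 100 bases before the start, a CHR sequence was in 36.4% of the windows of G2 and mitosis genes and in 4.92% of all windows. Of the 31 windows of G1/S and replication genes, 2 held a CHR sequence (6.45%) and 61.3% held CCAAT. A match is a description of the letters and not a bound site.

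The 5 promoters printed next are those with a CHR sequence and a CCAAT box in the last 100 bases whose genes had the largest Oct4hi minus Oct4low differences. They show an arrangement whose 2 elements were both found in 25 of the 43 genes. Each line gives the 100 bases before the start, 5′ to 3′ on the strand of the gene, with CHR and CCAAT matches in capitals (CCAAT on the other strand reads ATTGG). KIF23 is on the plus strand at chr15:69414249-69414348, MKI67 on the minus strand at chr10:128126424-128126523 and CDK1 on the plus strand at chr10:60778378-60778477. KIF4A is on the plus strand at chrX:70290004-70290103 and KIF18A on the minus strand at chr11:28108157-28108256.
KIF23: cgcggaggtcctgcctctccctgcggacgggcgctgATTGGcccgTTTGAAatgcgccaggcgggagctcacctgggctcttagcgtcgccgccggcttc
MKI67: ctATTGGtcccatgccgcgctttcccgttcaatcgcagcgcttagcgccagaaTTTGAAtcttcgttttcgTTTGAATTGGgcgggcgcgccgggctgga
CDK1: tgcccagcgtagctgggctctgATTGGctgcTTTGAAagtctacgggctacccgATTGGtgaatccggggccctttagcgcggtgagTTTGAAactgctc
KIF4A: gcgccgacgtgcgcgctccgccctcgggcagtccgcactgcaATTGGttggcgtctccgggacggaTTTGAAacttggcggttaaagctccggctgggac
KIF18A: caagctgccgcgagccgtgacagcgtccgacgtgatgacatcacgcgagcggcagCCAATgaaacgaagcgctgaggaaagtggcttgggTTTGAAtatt

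In KIF23 the CHR sequence began 55 bases before the start and the CCAAT box 64 bases before it. MKI67 had CHR sequences that began 47 and 29 bases before the start, and the second of them runs into a CCAAT box and shares 1 base with it. Among tested genes in the table, the median Oct4hi minus Oct4low difference was 0.372 (log2) for the 22 with a CHR sequence and 0.3764 for the 8 without one. It was 0.4297 for the 24 with CCAAT and 0.323 for the 6 without it.

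Values below are log2 intensities, so a difference of 1 is a doubling. A gene is given by its brightest probe set, and differences are given with the standard error (SE) of limma's model. Adjusted p-values are from limma's two-sided moderated test over all tested probe sets, with a threshold of 0.05. Array medians lay between 5.05 and 5.14. Of 7 basal or mesenchymal markers with a row, CAV1, CD44, CAV2, EGFR and SPARC were above them in every array, MSN was above in 1 array and VIM, in the single row that carries its symbol, in 0. Luminal markers were mixed. ESR1, GATA3, MLPH and EPCAM were above the median in all 10 arrays, TFF1 in 9, and PGR, AGR2 and CDH1 in 0. Means in Oct4hi, Oct4med and Oct4low were near the array medians for ESR1 (5.83, 6.18 and 6.08) and EGFR (5.89, 6.15 and 5.79). For MLPH they were 8.37, 9.11 and 9.24. Of the 4 leukocyte markers with a row, CD3E was above it in 10 arrays, CD14 in 8, and PTPRC and LYZ in 0.

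G2 and mitosis genes were higher in Oct4hi than in Oct4low BCCs across nearly all roles. Of the 35 tested genes 31 were higher (88.6%) and 0 were lower, where 20.4% of all 7639 tested genes were higher and 14.8% lower. All 35 differences were positive, with a median of 0.37 (0.15 to 0.83) against 0.02 over all tested genes. These are changes of 1.11-fold to 1.78-fold. In 30 of the 35 every Oct4hi array was above every Oct4low array, which held for 21.3% of all tested genes. CCNB1, CCNB2, NCAPG and ECT2 did not pass the test. Per the methods, features with little change across the arrays were left out before deposit, so genes that varied little may be missing from the 35 and from the 7639. In RNA from sorted cells, more cells in G2 or mitosis and more of these transcripts per cell cannot be told apart.

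**Figure D1:**
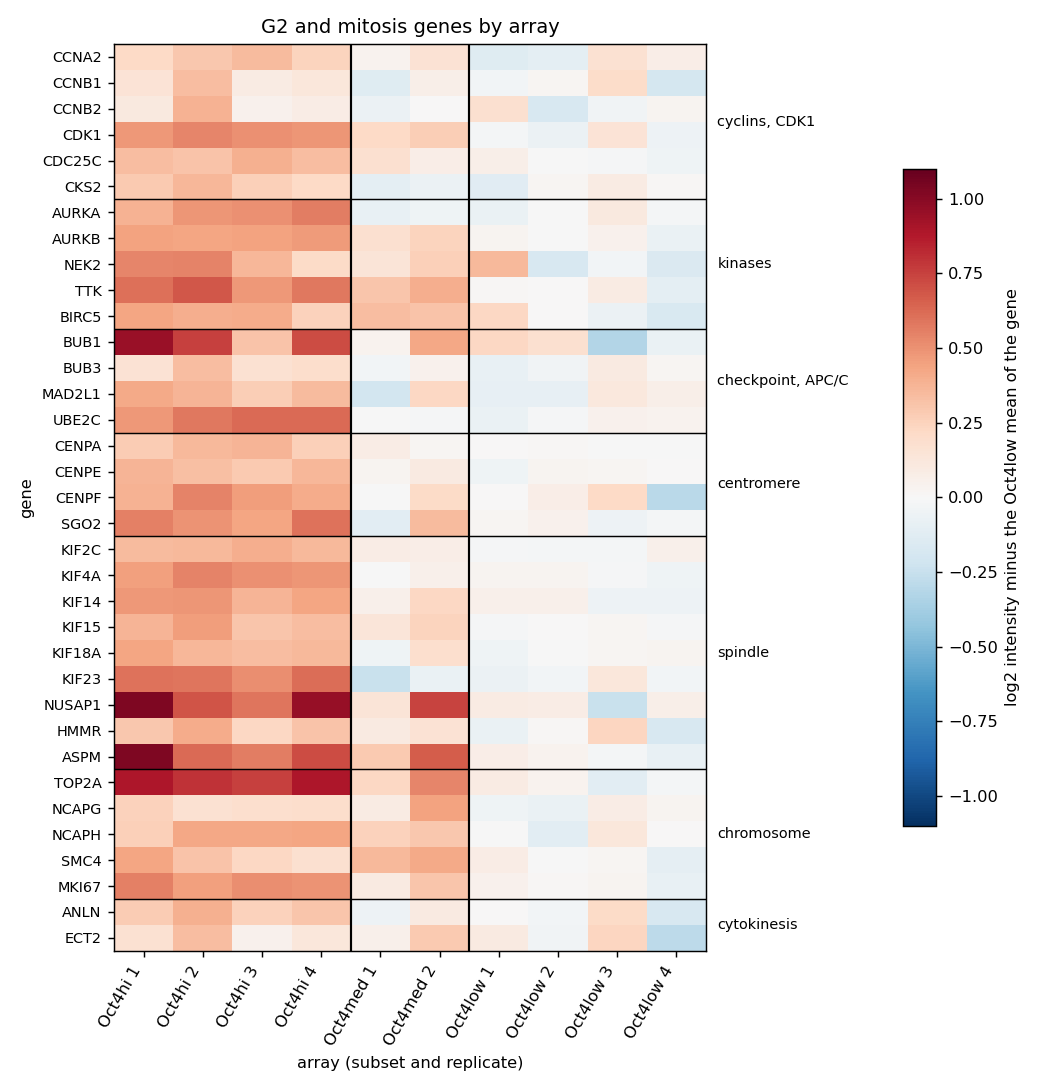
Each row is 1 of the 35 tested G2 and mitosis genes and each column 1 array, and the color is the log2 intensity minus the mean of that gene over the 4 Oct4low arrays. The 4 Oct4hi columns are red for all 35 genes, with the deepest color in BUB1, NUSAP1, ASPM and TOP2A, while the 2 Oct4med columns differ by gene and Oct4med 2 is higher than Oct4med 1 in 30 of 35.

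The genes that start mitosis included both rises and genes that did not pass the test. CDK1 (203213_at), the kinase that drives entry into mitosis, was 11.78, 11.84, 11.81 and 11.80 in Oct4hi, 11.53 and 11.58 in Oct4med and 11.28, 11.24, 11.46 and 11.25 in Oct4low BCCs. The 3 subsets did not overlap. The difference was 0.50 ± 0.07 (SE) for Oct4hi minus Oct4low BCCs (adjusted p = 0.000287), and the other 3 CDK1 probe sets were also higher, by 0.67 to 0.77. CDC25C (205167_s_at), the phosphatase that activates CDK1, was 8.87, 8.85, 8.93 and 8.87 in Oct4hi, 8.71 and 8.61 in Oct4med and 8.60, 8.53, 8.53 and 8.49 in Oct4low BCCs, without overlap. The Oct4hi minus Oct4low difference of CDC25C was 0.34 ± 0.06 (adjusted p = 0.00182). At the other CDC25C probe set this difference was 0.52 (adjusted p = 0.00842), but Oct4hi replicate 3 (6.196) was below Oct4low replicate 1 (6.206). The Oct4hi minus Oct4med difference was 0.01 there.

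CKS2 (204170_s_at), a small subunit of cyclin-dependent kinase complexes, had another order. It was 12.49, 12.56, 12.46 and 12.41 in Oct4hi, 12.09 and 12.14 in Oct4med and 12.07, 12.22, 12.29 and 12.21 in Oct4low BCCs. The Oct4hi arrays were above all others, and the Oct4med arrays lay within the Oct4low range. The difference was 0.28 ± 0.07 over Oct4low (adjusted p = 0.00931) and 0.37 ± 0.09 over Oct4med BCCs (adjusted p = 0.0102). CCNB1 (228729_at), the cyclin that forms the mitotic kinase with CDK1, was 10.13, 10.32, 10.06 and 10.10 in Oct4hi, 9.84 and 10.04 in Oct4med and 9.94, 9.998, 10.18 and 9.78 in Oct4low BCCs. Oct4low replicate 3 was above 3 of the 4 Oct4hi arrays. The CCNB1 difference of 0.18 ± 0.10 did not pass (adjusted p = 0.177), and neither did that of CCNB2, at 0.15 ± 0.10 (adjusted p = 0.24). The CCNB2 signal was near the array medians, with means of 5.71 in Oct4hi, 5.53 in Oct4med and 5.56 in Oct4low BCCs. CCNA2, the cyclin of S and G2, was higher by 0.28 ± 0.08 (adjusted p = 0.0207) and by 0.56 at its other probe set (adjusted p = 0.000138).

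All 5 tested mitotic kinase and chromosomal passenger genes rose in Oct4hi over Oct4low BCCs. TTK (204822_at), the kinase that starts the spindle checkpoint, was 9.97, 10.04, 9.84 and 9.94 in Oct4hi, 9.67 and 9.76 in Oct4med and 9.37, 9.37, 9.45 and 9.26 in Oct4low BCCs. Each subset was separate, and the Oct4hi minus Oct4low difference was 0.59 ± 0.07 (adjusted p = 0.000128). AURKB (209464_at), the kinase that corrects faulty attachments, was 10.01, 10.0002, 10.01 and 10.03 in Oct4hi, 9.74 and 9.81 in Oct4med and 9.60, 9.56, 9.61 and 9.49 in Oct4low BCCs. Its arrays fell in the same order without overlap at this probe set, with a difference of 0.45 ± 0.06 (adjusted p = 0.000303). At the other AURKB probe set Oct4med (6.51 and 7.03) overlapped Oct4low (6.88 to 7.08). The Oct4med minus Oct4low difference was -0.19 there.

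AURKA (208079_s_at), the kinase of spindle poles, was 11.55, 11.65, 11.67 and 11.73 in Oct4hi, 11.08 and 11.12 in Oct4med and 11.09, 11.16, 11.27 and 11.14 in Oct4low BCCs. Here Oct4hi stood alone, with 1 Oct4med array below and 1 within the Oct4low range. The AURKA difference was 0.48 ± 0.07 over Oct4low (adjusted p = 0.00037) and 0.55 ± 0.09 over Oct4med BCCs (adjusted p = 0.000902). The other AURKA probe set gave 0.51 over each. NEK2, a centrosome kinase, was higher by 0.42 ± 0.12 (adjusted p = 0.0181) with an overlap, since Oct4low replicate 1 (7.67) was above Oct4hi replicate 4 (7.53). BIRC5, survivin of the chromosomal passenger complex, was higher by 0.37 ± 0.09 (adjusted p = 0.00665).

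The 4 tested genes of the spindle checkpoint and the APC/C were all higher in Oct4hi than in Oct4low BCCs. UBE2C (202954_at), the ubiquitin-conjugating enzyme that works with the APC/C, was 12.69, 12.79, 12.83 and 12.83 in Oct4hi, 12.20 and 12.20 in Oct4med and 12.14, 12.20, 12.25 and 12.24 in Oct4low BCCs. The Oct4med arrays were inside the Oct4low range and all Oct4hi arrays were above both. The difference over Oct4med BCCs was 0.59 ± 0.08 (adjusted p = 0.000404). MAD2L1 (203362_s_at), which inhibits CDC20 while the checkpoint is on, was 11.09, 11.05, 10.94 and 11.03 in Oct4hi, 10.47 and 10.90 in Oct4med and 10.59, 10.58, 10.79 and 10.73 in Oct4low BCCs. The 2 Oct4med arrays lay on either side of all 4 Oct4low arrays at this probe set. The MAD2L1 difference there was 0.36 ± 0.10 over Oct4low BCCs (adjusted p = 0.0129). At the other MAD2L1 probe set both Oct4med arrays (10.58 and 10.52) were above all Oct4low arrays (10.09 to 10.33).

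BUB1 (215509_s_at), the kinase that recruits checkpoint proteins to kinetochores, was 6.50, 6.30, 5.87 and 6.27 in Oct4hi, 5.59 and 5.97 in Oct4med and 5.78, 5.72, 5.22 and 5.47 in Oct4low BCCs. Oct4hi and Oct4low did not overlap, but each spread over 0.5 or more. The BUB1 difference was 0.68 ± 0.15 (adjusted p = 0.00457) at this probe set and 0.10 at the next brightest one (adjusted p = 0.533). BUB3, the partner of BUB1, had the smallest difference to pass, 0.21 ± 0.07 (adjusted p = 0.0385).

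All 4 tested centromere and kinetochore genes rose. SGO2 (235425_at), which guards centromeric cohesin, was 10.69, 10.63, 10.57 and 10.73 in Oct4hi, 10.02 and 10.48 in Oct4med and 10.16, 10.19, 10.08 and 10.11 in Oct4low BCCs. At this probe set the Oct4med replicates again fell on either side of the Oct4low arrays. The SGO2 difference there was 0.52 ± 0.09 over Oct4low (adjusted p = 0.00145) and 0.41 ± 0.11 over Oct4med BCCs (adjusted p = 0.0218). At the other SGO2 probe set both Oct4med arrays (9.39 and 9.46) were above all Oct4low arrays (9.12 to 9.34). Its Oct4hi minus Oct4med difference of 0.21 did not pass (adjusted p = 0.0854). CENPF (209172_s_at), a protein of the outer kinetochore, was 7.60, 7.77, 7.67 and 7.62 in Oct4hi, 7.21 and 7.43 in Oct4med and 7.22, 7.29, 7.43 and 6.92 in Oct4low BCCs. CENPE (205046_at), the kinesin that moves chromosomes to the spindle equator, was 9.23, 9.18, 9.15 and 9.23 in Oct4hi, 8.89 and 8.96 in Oct4med and 8.81, 8.89, 8.88 and 8.86 in Oct4low BCCs. Both were above the Oct4low arrays in every Oct4hi array, by 0.45 ± 0.10 for CENPF (adjusted p = 0.00591) and 0.34 ± 0.06 for CENPE (adjusted p = 0.00172). CENPA, the histone H3 variant that marks centromeres, was higher by 0.32 ± 0.06 (adjusted p = 0.00251).

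All 9 tested spindle motors and microtubule-binding proteins rose, with a median of 0.44. NUSAP1 (219978_s_at), which bundles spindle microtubules, was 11.00, 10.67, 10.57 and 10.94 in Oct4hi, 10.12 and 10.72 in Oct4med and 10.07, 10.07, 9.74 and 10.05 in Oct4low BCCs. Oct4med replicate 2 was within the Oct4hi range and replicate 1 close to the Oct4low arrays. The NUSAP1 difference was 0.82 ± 0.14 (adjusted p = 0.00102), which is 1.76-fold. ASPM (239002_at), a protein of spindle poles, was 9.19, 8.79, 8.73 and 8.88 in Oct4hi, 8.45 and 8.83 in Oct4med and 8.23, 8.21, 8.14 and 8.08 in Oct4low BCCs. Both Oct4med arrays were above all Oct4low arrays at this probe set. The ASPM differences there were 0.73 ± 0.11 for Oct4hi (adjusted p = 0.000455) and 0.48 ± 0.14 for Oct4med (adjusted p = 0.028), each over Oct4low BCCs. At the other ASPM probe set Oct4med replicate 1 (6.66) was below all Oct4low arrays and replicate 2 (7.94) above them.

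KIF23 and KIF4A, kinesins of the central spindle, followed another pattern than NUSAP1 and ASPM. KIF23 (204709_s_at), the motor subunit of centralspindlin, was 9.95, 9.94, 9.86 and 9.97 in Oct4hi, 9.11 and 9.27 in Oct4med and 9.28, 9.32, 9.47 and 9.32 in Oct4low BCCs. At the brightest probe sets it was the 1 gene of the 35 with both Oct4med arrays below all Oct4low arrays, which held for 21.2% of all tested genes. The KIF23 difference was 0.58 ± 0.07 over Oct4low (adjusted p = 0.000122) and 0.74 ± 0.09 over Oct4med BCCs (adjusted p = 0.000138). Oct4med minus Oct4low was -0.16 ± 0.09 (adjusted p = 0.224). At the other KIF23 probe set both Oct4med arrays (5.89 and 6.24) were inside the Oct4low range (5.87 to 6.55). KIF4A (218355_at), a chromokinesin of the midzone, was 9.87, 9.96, 9.92 and 9.91 in Oct4hi, 9.42 and 9.48 in Oct4med and 9.45, 9.45, 9.41 and 9.37 in Oct4low BCCs. Its Oct4med and Oct4low arrays overlapped, and the Oct4hi arrays were higher by 0.50 ± 0.06 over Oct4low (adjusted p = 0.000146) and by 0.47 ± 0.08 over Oct4med BCCs (adjusted p = 0.00124). KIF2C, KIF14, KIF15, KIF18A and HMMR rose by 0.31 to 0.44 in Oct4hi over Oct4low BCCs.

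Among genes of chromosome structure, TOP2A had the largest difference of all 35. TOP2A (201291_s_at), the topoisomerase that untangles sister chromatids, was 11.89, 11.79, 11.75 and 11.89 in Oct4hi, 11.22 and 11.53 in Oct4med and 11.09, 11.04, 10.89 and 10.98 in Oct4low BCCs. The subsets were separate, and Oct4hi exceeded Oct4low BCCs by 0.83 ± 0.08 (adjusted p = 2.55e-05). At the other TOP2A probe set Oct4med replicate 1 (10.83) was below Oct4low replicate 3 (10.84). MKI67 (212022_s_at), which coats mitotic chromosomes and encodes the Ki-67 antigen, was 9.91, 9.80, 9.87 and 9.84 in Oct4hi, 9.45 and 9.66 in Oct4med and 9.40, 9.36, 9.38 and 9.27 in Oct4low BCCs. It was higher in Oct4hi than in Oct4low BCCs by 0.50 ± 0.07 (adjusted p = 0.000295), again with no overlap among the 3 subsets. SMC4 (201663_s_at), a core subunit of condensin, was 10.09, 9.98, 9.89 and 9.84 in Oct4hi, 10.02 and 10.08 in Oct4med and 9.75, 9.66, 9.68 and 9.56 in Oct4low BCCs. For SMC4 the Oct4med arrays lay within the Oct4hi range at this probe set. At its other tested probe set Oct4med replicate 1 (7.96) was below all Oct4hi arrays and replicate 2 (8.44) within their range.

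The condensin genes differed among themselves. SMC4 was higher by 0.29 ± 0.08 in Oct4hi (adjusted p = 0.0116) and by 0.39 ± 0.09 in Oct4med (adjusted p = 0.0122), each over Oct4low BCCs. NCAPH, the kleisin that closes the condensin I ring, was higher by 0.39 ± 0.08 in Oct4hi BCCs (adjusted p = 0.00221). NCAPG, a HEAT-repeat subunit of condensin I, had a difference of 0.20 ± 0.08 that did not pass (adjusted p = 0.0821), although every Oct4hi array was above every Oct4low array.

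Of the cytokinesis genes, ANLN (222608_s_at), which links actin and septins in the cleavage furrow, was 11.26, 11.38, 11.24 and 11.30 in Oct4hi, 10.93 and 11.09 in Oct4med and 10.99, 10.96, 11.20 and 10.81 in Oct4low BCCs. The Oct4hi arrays were above the rest, with a difference of 0.31 ± 0.09 over Oct4low BCCs (adjusted p = 0.0173). That call was lost without Oct4hi replicate 2 (adjusted p = 0.054) and without Oct4low replicate 4 (adjusted p = 0.0544). ECT2 (219787_s_at), the exchange factor that activates RhoA at the furrow, was 9.88, 10.06, 9.77 and 9.84 in Oct4hi, 9.78 and 10.01 in Oct4med and 9.81, 9.68, 9.96 and 9.43 in Oct4low BCCs. These arrays overlapped and the difference was 0.17 ± 0.11 (adjusted p = 0.272). The other ECT2 probe set was higher in Oct4hi by 0.53 (adjusted p = 0.0283) and in Oct4med by 0.83 (adjusted p = 0.0145), each over Oct4low BCCs.

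Second probe sets mostly showed the same direction. Of 18 further tested probe sets, which belong to 16 of the genes, 17 were higher in Oct4hi than in Oct4low BCCs, where 18.2% of all tested probe sets were higher and 16.7% lower, and the exception was the dimmer BUB1 probe set. No tested probe set of these genes was called lower. Of the 31 calls, 24 held under every alternative that tested them. The calls of BUB3, CCNA2, NEK2, HMMR, ANLN, BUB1 and SMC4 were lost under at least 1 alternative. The call of BUB3 was lost without any 1 of Oct4hi replicates 1, 2 and 4 or Oct4low replicates 1, 2 and 4 (adjusted p between 0.055 and 0.118). That of CCNA2 was lost without Oct4hi replicate 2 or 3 or Oct4low replicate 1 or 2 (0.0508 to 0.0667). NEK2 was lost without Oct4hi replicate 1 or 2 or Oct4low replicate 2 or 4 (0.0557 to 0.0567), and HMMR without Oct4hi replicate 2 (0.0566) or Oct4low replicate 4 (0.0563).

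**Figure D2:**
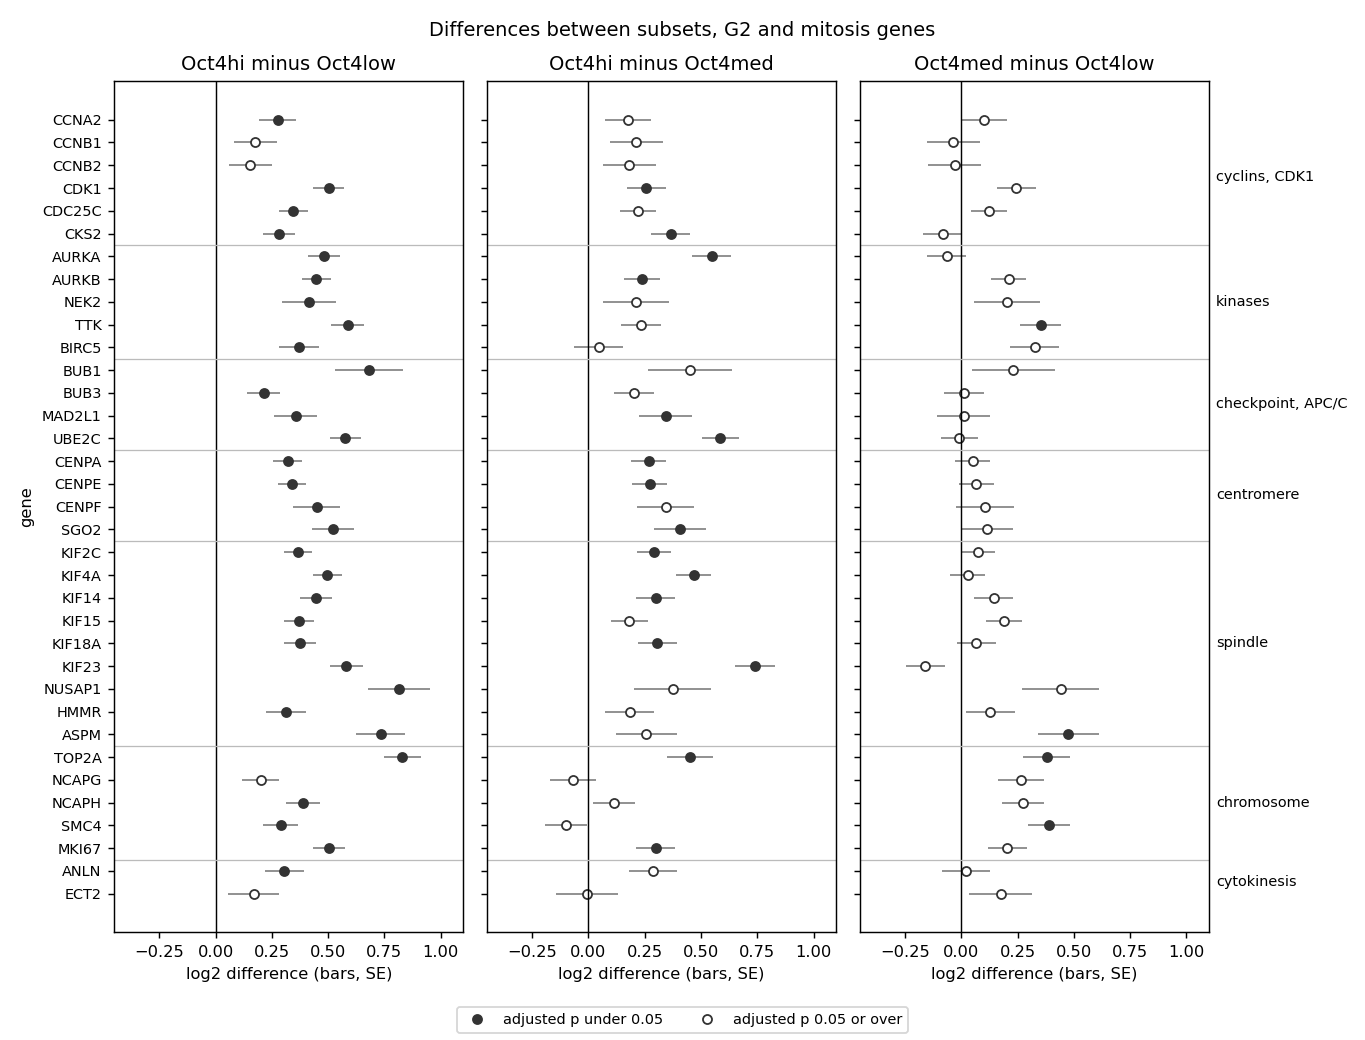
Points are log2 differences of the 35 tested G2 and mitosis genes between subsets and bars are SE from limma, with filled points for an adjusted p under 0.05. For Oct4hi minus Oct4low BCCs 31 points are filled, for Oct4hi minus Oct4med 16 and for Oct4med minus Oct4low 4, and all filled points lie to the right of 0.

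Oct4hi BCCs were also higher than Oct4med BCCs, in fewer genes. Of the 35 genes 16 were higher (45.7%) and 0 lower, where 18.2% of all tested genes were higher and 9.63% lower. The median difference was 0.27 against -0.01 over all tested genes. In 26 of 35 both Oct4med arrays were below all Oct4hi arrays, which held for 26.9% of all tested genes. The largest differences were those of KIF23, UBE2C, AURKA and KIF4A given above, and these 4 calls held under every alternative. TOP2A followed, at 0.45 ± 0.10 (adjusted p = 0.0078), and MKI67 was higher by 0.30 ± 0.09 (adjusted p = 0.0252). The 3 negative differences were -0.10 for SMC4, -0.07 for NCAPG and -0.0048 for ECT2, and none passed. The count depended on the arrays and scaling. Without Oct4med replicate 1 those 4 calls alone were made. The fit without Oct4med replicate 1 has 1 Oct4med array, so it cannot show whether the calls rested on replicate 1. The count was 9 (25.7%) without Oct4hi replicate 1, where 14.8% of all tested genes were higher. It was 5 (14.3%) with the values quantile normalized again, where 10.8% of all tested genes were higher and 13.5% lower. The median was then 0.13, against -0.06 over all tested genes.

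Fewer of the genes passed the test between Oct4med and Oct4low BCCs. TTK, ASPM, TOP2A and SMC4 were higher, which is 4 of 35 (11.4%), and 0 were lower, where 5.68% of all tested genes were higher and 11.7% lower. The differences of TTK and TOP2A were 0.35 ± 0.09 (adjusted p = 0.0168) and 0.38 ± 0.10 (adjusted p = 0.0227). In 17 of 35 both Oct4med arrays were above all Oct4low arrays, which held for 16.9% of all tested genes. The median over the 35 was 0.12 against 0.03 over all tested genes. Of the 35 differences 29 were positive, where 4171 of all 7639 were. The calls of these genes were lost without Oct4med replicate 2. That fit has 1 Oct4med array, so the loss cannot show whether the calls rested on replicate 2. Without it the differences were 0.31 for TTK, 0.28 for ASPM, 0.22 for TOP2A and 0.36 for SMC4. The TTK call was also lost without Oct4med replicate 1, where its difference was 0.40. With the values quantile normalized again 12 passed (34.3%), where 11% of all tested genes were higher. These counts rest on the brightest probe set of each gene. Of the 18 further tested probe sets, 7 passed with a positive Oct4med minus Oct4low difference and 0 with a negative one. They were those of CDK1 (0.38 to 0.51), CCNA2 (0.36), CDC25C (0.50), BUB1 (0.45) and ECT2 (0.83). The share over all tested probe sets is not given for this comparison. Over genes it was the 5.68% higher and 11.7% lower given above. The second probe sets of TOP2A (0.16, adjusted p = 0.207), SMC4 (0.22, adjusted p = 0.286) and ASPM (0.40, adjusted p = 0.338) did not pass.

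The place of Oct4med between the other subsets varied by gene. The comparisons share arrays, so these positions are a description. The mean of Oct4med fell between those of Oct4hi and Oct4low for 26 of the 35 genes, nearer to Oct4low in 20 of them. It was below the Oct4low mean in 6 genes (CKS2, KIF23, CCNB1, CCNB2, AURKA and UBE2C) and above the Oct4hi mean in 3 (ECT2, NCAPG and SMC4). Expressed as a share of the step between the Oct4low and the Oct4hi mean, Oct4med had reached at most 20% in 13 genes, from 20% to 50% in 13 and over 50% in 9. The share was -1.5% for UBE2C, 5.7% for KIF4A, 45.6% for TOP2A, 60% for TTK, 65% for ASPM and 87.6% for BIRC5. At their brightest probe sets all 3 condensin genes were among the 9 with over 50%. At the other SMC4 probe set the means were 8.54 in Oct4hi, 8.20 in Oct4med and 7.98 in Oct4low BCCs, with Oct4med nearer to Oct4low. The positions depend on the scaling and the probe sets. With the values quantile normalized again, the median over the 35 genes was 0.20 for Oct4med minus Oct4low and 0.13 for Oct4hi minus Oct4med. Over the 18 further tested probe sets those medians were 0.274 and 0.275.

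Replicates of a subset were close. The mean of the 35 genes was 9.90, 9.91, 9.83 and 9.86 in the Oct4hi arrays, 9.52 and 9.68 in the Oct4med arrays and 9.48, 9.45, 9.50 and 9.40 in the Oct4low arrays. The lowest Oct4hi array was thus above the highest array of either other subset. The Oct4med replicates differed most, and replicate 2 was higher in 30 of 35 genes, against 56.1% of all tested genes. Among Oct4low arrays, replicate 3 was the highest for 18 genes and replicate 4 the lowest for 14. Oct4low replicate 3 was inside the Oct4hi range for CCNB1, HMMR and ECT2.

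**Figure D3:**
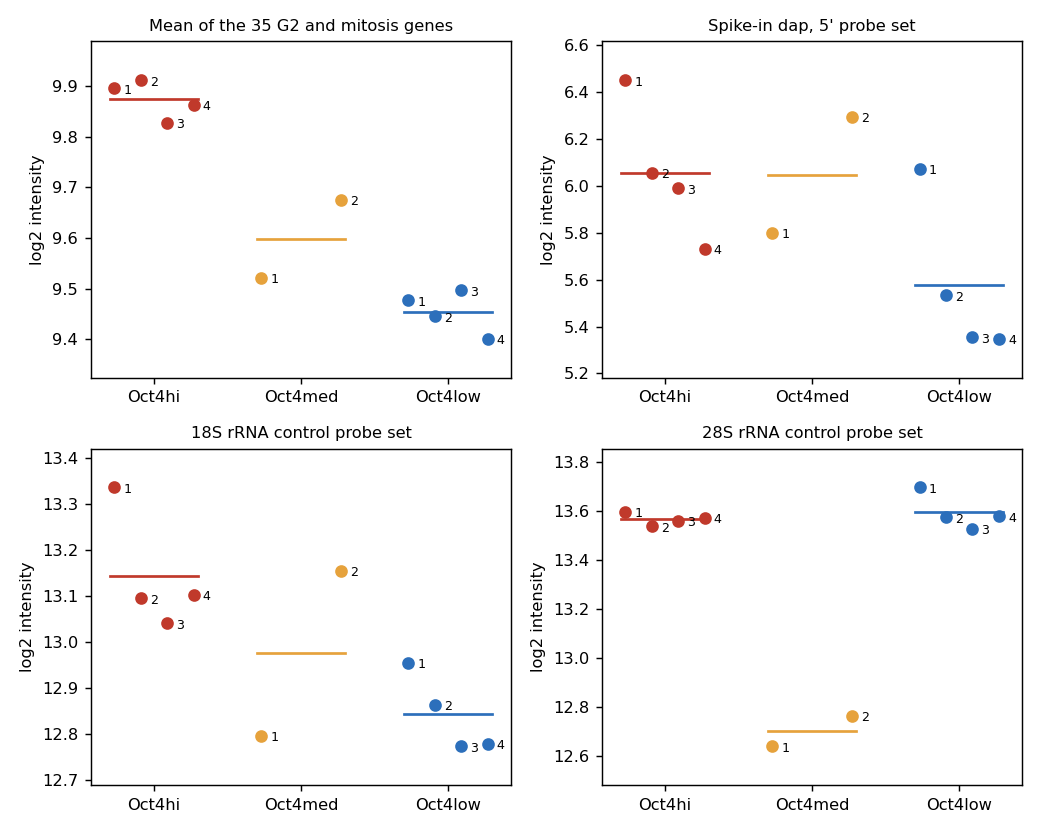
Points are single arrays, numbered by replicate, and lines are subset means, all in log2 intensity. The mean of the 35 G2 and mitosis genes separates the Oct4hi arrays (9.83 to 9.91) from the Oct4med (9.52 and 9.68) and Oct4low arrays (9.40 to 9.50), the dap control overlaps between subsets, the 18S control is higher in every Oct4hi than in every Oct4low array, and the 28S control is low in both Oct4med arrays.

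Control probe sets moved with the subsets in part. Of 23 controls, 2 were higher in every Oct4hi than in every Oct4low array, 3 were lower in every Oct4hi array and 18 overlapped. The 18S ribosomal RNA control was 13.34, 13.09, 13.04 and 13.10 in Oct4hi, 12.80 and 13.15 in Oct4med and 12.96, 12.86, 12.77 and 12.78 in Oct4low arrays. The 5′ control of the ISGF3A transcript was the other higher one, at a mean of 5.69 ± 0.16 in Oct4hi, 5.69 ± 0.41 in Oct4med and 5.35 ± 0.11 in Oct4low arrays (SD, n = 4, 2 and 4). For these controls the Oct4hi minus Oct4low differences were 0.30 (18S) and 0.34 (ISGF3A), beside the median of 0.37 for the G2 and mitosis genes. The 3 lower controls were 2 probe sets of the spike-in transcript lys, at -0.26 and -0.22, and a 28S ribosomal RNA probe set, at -0.11. The 5′ probe set of the spike-in transcript dap was 6.45, 6.06, 5.99 and 5.73 in Oct4hi, 5.80 and 6.29 in Oct4med and 6.07, 5.53, 5.35 and 5.35 in Oct4low arrays. The subsets overlapped there, with means of 6.06 in Oct4hi, 6.05 in Oct4med and 5.58 in Oct4low arrays. The brightest 28S ribosomal RNA control was 13.54 to 13.60 in Oct4hi, 12.64 and 12.77 in Oct4med and 13.53 to 13.70 in Oct4low arrays. The part of these controls in the differences was not tested.

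Some marker lists moved too. Their counts stand beside 20.4% higher and 14.8% lower over all tested genes in Oct4hi than in Oct4low BCCs. Of 12 luminal breast markers 8 had a row, 5 were tested and 3 were lower in Oct4hi than in Oct4low BCCs, and the summed linear intensity was 860 to 913 in Oct4hi, 1093 to 1096 in Oct4med and 1219 to 1277 in Oct4low arrays. For the basal list, 3 of 5 tested genes were lower in Oct4hi than in Oct4low BCCs, with sums of 7630 to 8173 in Oct4hi, 8799 to 8927 in Oct4med and 9597 to 10311 in Oct4low arrays. The sum of the 4 erythroid genes with a row was 509 to 526 in Oct4hi, 513 to 557 in Oct4med and 433 to 443 in Oct4low arrays, with ALAS2 below the array median throughout. HBE1, an embryonic globin, was the 1 erythroid gene called higher in Oct4hi than in Oct4low BCCs, at 7.83 to 8.09 in Oct4hi, 7.87 and 7.92 in Oct4med and 7.10 to 7.33 in Oct4low arrays. Leukocyte sums overlapped among the subsets and 0 of the 2 tested leukocyte genes passed limma's test. Stromal sums overlapped too, with ACTA2 called higher and PECAM1 lower in Oct4hi than in Oct4low BCCs among 5 tested genes. The part of these lists in the differences was not tested.

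**Figure D4:**
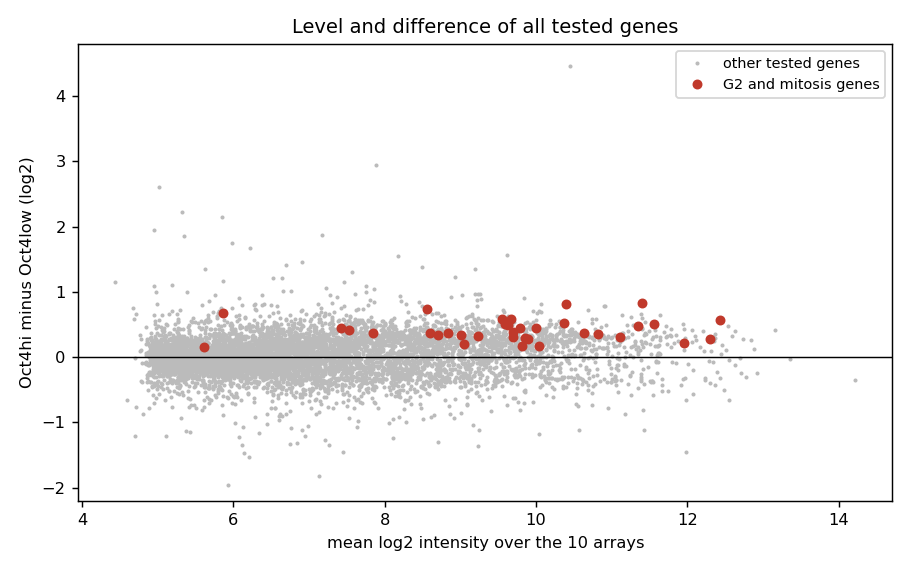
Each point is a tested gene, with its mean log2 intensity over the 10 arrays on the horizontal axis and its Oct4hi minus Oct4low difference (log2) on the vertical axis. The G2 and mitosis genes (red) spread from 5.62 to 12.44 in intensity, and all 35 lie above 0, between 0.15 and 0.83, while many other genes (gray) differ by more in either direction.

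Other genes of the same machinery were counted from lists of related genes. Over all tested genes 20.4% were higher in Oct4hi than in Oct4low BCCs and 14.8% were lower. Of 20 further kinetochore genes 17 were higher in Oct4hi than in Oct4low BCCs and 0 lower, with a median of 0.38. ZWILCH, of the complex that loads checkpoint proteins, rose by 0.74 ± 0.13 (adjusted p = 0.00153) and CENPI, of the inner kinetochore, by 0.66 ± 0.07 (adjusted p = 6.53e-05). Of 17 further spindle and cytokinesis genes 14 were higher and 0 lower, led by FAM83D, which directs CK1α to the spindle, at 0.72 ± 0.07 (adjusted p = 1.49e-05). MYH10, the nonmuscle myosin IIB heavy chain, rose by 0.56 ± 0.10 (adjusted p = 0.00122).

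The counts were more mixed for APC/C, cohesin and condensin genes and for genes of G2 control. The shares over all tested genes were again 20.4% higher and 14.8% lower in Oct4hi than in Oct4low BCCs. Of the 17 tested genes of the first list 8 were higher and 1, the cohesin regulator PDS5A, was lower in Oct4hi than in Oct4low BCCs. SMC3, a cohesin subunit, was higher in Oct4hi by 0.65 ± 0.11 (adjusted p = 0.000836) and in Oct4med by 0.61 ± 0.13 (adjusted p = 0.0067), each over Oct4low BCCs. FBXO5, the APC/C inhibitor EMI1, was higher in both as well, by 0.63 ± 0.09 and 0.59 ± 0.11 (adjusted p = 0.000222 and 0.0021). Of 18 genes of G2 control and the MuvB complexes 10 were higher and 1 lower. CDC25A, the phosphatase of S phase entry, rose by 0.58 ± 0.18 (adjusted p = 0.0236). CCNA1, the A cyclin of meiosis, was the 1 lower gene, at -0.61 ± 0.08 (adjusted p = 0.000255), where CCNA2 was higher.

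Genes of the earlier G1/S transition and of DNA replication had other counts. In Oct4hi over Oct4low BCCs 10 of 20 were higher and 0 lower, where 20.4% of all tested genes were higher and 14.8% lower, and the median was 0.21 beside 0.37 for the G2 and mitosis genes. In Oct4med over Oct4low BCCs 12 of 20 were higher and 0 lower, where 5.68% of all tested genes were higher and 11.7% lower, with a median of 0.30 beside 0.12. In Oct4hi over Oct4med BCCs 2 of 20 were higher (10%) and 5 lower, where 18.2% of all tested genes were higher and 9.63% lower, with a median of -0.15 beside 0.27. CCNE1, the G1/S cyclin E1, was lower in Oct4hi than in Oct4med BCCs by 0.36 ± 0.08 on the log2 scale (difference -0.36, adjusted p = 0.00621). GINS1, a subunit of the replicative helicase, had its Oct4med mean near that of Oct4low instead, at 10.54 in Oct4hi, 9.90 in Oct4med and 9.97 in Oct4low BCCs (means). The difference between the 2 lists was not tested.

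**Figure D5:**
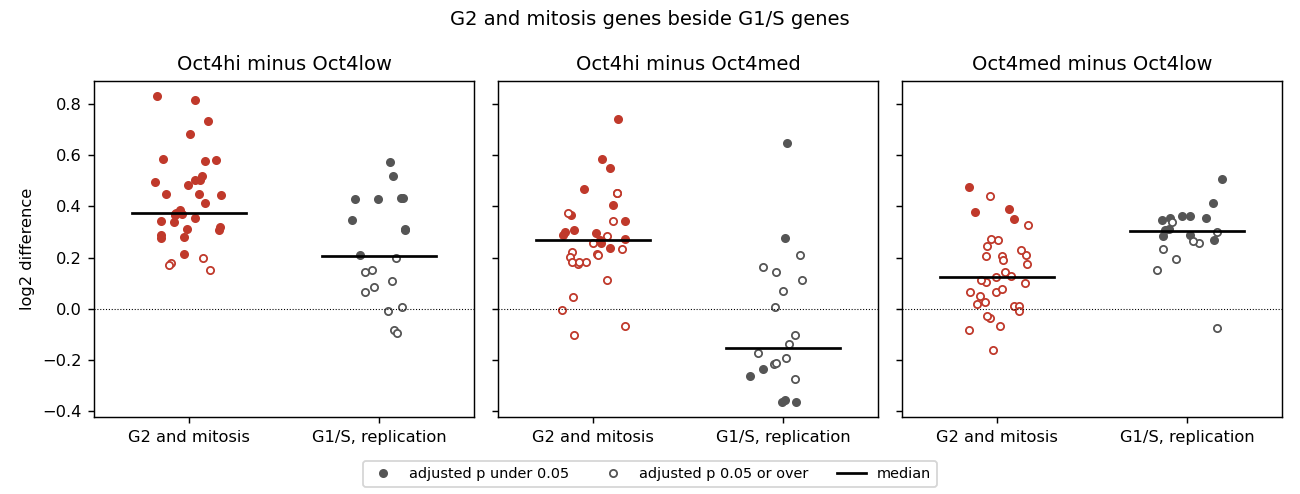
Points are log2 differences of the 35 G2 and mitosis genes (red) and the 20 G1/S and replication genes (gray), filled where the adjusted p is under 0.05, with the median as a line. For Oct4hi minus Oct4low the medians are 0.37 and 0.21, for Oct4hi minus Oct4med 0.27 and -0.15, and for Oct4med minus Oct4low 0.12 and 0.30.

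Inhibitors and brakes of the cell cycle were called higher in Oct4hi than in Oct4low BCCs in 3 of 12 genes (25%) and lower in 2, close to the 20.4% higher and 14.8% lower over all tested genes. In Oct4med over Oct4low BCCs 1 of 12 was higher (8.33%) and 6 were lower, where 5.68% of all tested genes were higher and 11.7% lower. CDKN1A, the p21 inhibitor of cyclin-dependent kinases, was 9.29 ± 0.03 in Oct4hi, 8.57 ± 0.05 in Oct4med and 9.28 ± 0.05 in Oct4low BCCs (SD, n = 4, 2 and 4). It was lower in Oct4med than in Oct4low BCCs by 0.72 on the log2 scale (difference -0.72, adjusted p = 7.46e-05) and did not pass between Oct4hi and Oct4low (adjusted p = 0.943). CDKN1C, the p57 inhibitor, was lower in Oct4hi than in Oct4low BCCs (difference -0.60 ± 0.07, adjusted p = 8.53e-05), while GADD45B, a stress-induced gene, was higher (0.46 ± 0.06, adjusted p = 0.000264).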

How the data were processed

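Total RNA of the sorted MDA-MB-231 cells was hybridized to 10 Affymetrix U133 Plus 2.0 arrays. The deposited values are log2 intensities: per the methods and labels, the authors corrected the background, applied RMA normalization in BRB-Array Tools and filtered out features near background or with changes under 1.2-fold. This left 25750 probe sets, of which 18683 carry 1 gene symbol in the platform annotation, 799 several and 6268 none.

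The 23 control probe sets were left out of the tests. The 13872 other probe sets at or above the median of their array in at least 2 arrays were tested (7639 genes, each by its brightest probe set). One model with a mean per subset was fitted to all 10 arrays with limma 3.58.1 in R 4.3.3, with Benjamini-Hochberg adjustment over all tested probe sets. The script was tested on simulated data. The labels call the arrays biological replicates, and p-values measure the spread between these arrays, whose number limits the precision.

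The G2 and mitosis genes, the related lists and the alternatives were chosen with earlier results of these data known. Values on every array are given, within each role, for the genes with the largest change in any comparison, and for TOP2A, MKI67, FOXM1, CCNB1, CDK1 and UBE2C where measured. From each related list, up to 2 genes with the largest change among those called could be named per comparison. PDS5A and the genes without per-array values were named after their values were seen. Alternatives were other filters, normalizations, weights, priors and probe sets, the 2 subsets alone, a two-sample test without moderation (the random variance model of the methods was not run), the replicate number as a block and leaving out each array.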

Additional observations from a re-analysis of the deposited data

Results flagged for a closer look

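Each of the 35 genes was checked for an array that stood apart from the other 3 of its subset, in the Oct4hi and in the Oct4low arrays, which makes 70 groups. In 4 of them the gap of the extreme array to its nearest neighbor, as a share of the whole range, was above Dixon's critical value for 4 arrays. Chance flags about 1 in 20 groups. For KIF2C, Oct4hi replicate 3 (10.87) was above the other Oct4hi arrays, the nearest of which was at 10.82, with a ratio of 0.841. Oct4low replicate 4 of KIF2C (10.52) was above the other Oct4low arrays, the nearest at 10.46, with a ratio of 0.872. For NCAPH, Oct4hi replicate 1 (9.75) was below the other Oct4hi arrays, the nearest at 9.92, with a ratio of 0.973. For NUSAP1, Oct4low replicate 3 (9.74) was below the other Oct4low arrays, the nearest at 10.05, with a ratio of 0.924. In none of these 3 genes did the array that stood apart bring the Oct4hi and Oct4low arrays to overlap.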

How the results depend on the processing

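For Oct4hi over Oct4low BCCs, the count of 31 higher genes stayed between 22 and 32 except without _x_at and _s_at probe sets. There 17 of the 21 genes left passed (81%), where 17.3% of all genes were higher. The count was 22 of 23 (95.7%), where 32.6% of all genes were higher, with a variation filter computed here from the deposited values. This filter asked for changes of at least 1.2-fold from the probe set median in at least 20% of the arrays. It was met by 44.9% of the deposited probe sets and left 3626 of the 7639 genes, so it differs from the filter applied before deposit. Leaving out each array gave 26 to 32. For Oct4hi over Oct4med BCCs the count of 16 was 7 with no filter (20%), where 8.24% of all genes were higher. It was 5 with the values quantile normalized again (14.3%, against 10.8%) and 8 with only the 2 subsets in the fit (22.9%, against 14.1%). Without _x_at and _s_at probe sets it was 10 of 21 (47.6%, against 17.4%). Leaving out each array gave 4 to 18. For Oct4med over Oct4low BCCs the count of 4 was 10 of 33 with the stricter filter (30.3%), where 10.2% of all genes were higher. It was 12 with the values quantile normalized again (34.3%, against 11%) and 9 with an intensity trend and robust prior (25.7%, against 6.18%). A two-sample test without moderation gave 1 (2.86%, against 1.45%) and the mean of the probe sets of a gene 8 (22.9%, against 5.69%). Leaving out each array gave 0 to 5. With fewer genes tested the count can fall by construction, and in the other cases the cause was not tested. In no alternative was any of the genes called lower. MAD2L1 turned to -0.016 in Oct4hi minus Oct4med with its second brightest probe set, and likewise without _x_at and _s_at probe sets. Renewed quantile normalization also moved the counts over all tested genes, from 1389 higher and 736 lower to 824 and 1029 in Oct4hi against Oct4med, and from 434 and 896 to 842 and 657 in Oct4med against Oct4low BCCs.

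The replicate numbers of the labels were tried as a block. Deviations of arrays with the same number correlated between -0.26 and 0.28, so the numbers were not taken to pair the arrays. With the replicate block 30 genes were higher in Oct4hi over Oct4low, 8 in Oct4hi over Oct4med and 0 in Oct4med over Oct4low BCCs. Of all tested genes 18.5%, 11.3% and 1.37% were higher in these comparisons.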
